A study of Mus musculus with 24 samples.

Results

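The mitosis and G2/M genes described here are 48 genes whose products carry a cell from the end of DNA synthesis through chromosome segregation and cell division. They were taken as a fixed list of gene symbols that uses no measured value, but the list was chosen with earlier results of these data known. All 48 are in the deposited table of 54532 genes, and 48 of 48 passed a filter that asked for 1 FPKM or more in any 4 of the 24 libraries, as did 11377 genes in all. FPKM is a level that divides a gene's fragments by its exon length and by the library's mapped total.

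Messenger RNA was sequenced from macrophages grown from the bone marrow of C57BL/6 mice for 7 days in L929-conditioned medium, with 6 groups of 4 libraries. The Trem2(-/-) groups (KO) received S1P, received ACM or were untreated, and the wild-type groups (WT) were handled in the same 3 ways. S1P is the lipid mediator sphingosine-1-phosphate, given at 500 nM for 24 hours. ACM is serum-free medium conditioned for 24 hours by AML12 cells, a mouse hepatocyte line, after palmitic acid at 800 µM had made them apoptotic, and it was applied for 24 hours. Trem2 is a lipid-sensing receptor of the macrophage surface. The Trem2 allele, the number of mice, and what the untreated cells received in place of an agent are not stated by the labels, so a difference from untreated cells covers an agent together with its medium. The labels number the KO libraries 79 to 94 and the WT libraries 1 to 28, and genotype and any difference in preparation that goes with those numbers cannot be told apart.

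Entry into mitosis depends on cyclin A and B bound to the kinase Cdk1, and exit depends on the anaphase-promoting complex, which marks cyclin B and securin for destruction. Most of the genes are transcribed late in the cell cycle. In resting cells they are held down by the DREAM complex, and in G2 they are switched on by B-Myb and FoxM1, largely through a promoter element called the CHR (cell cycle genes homology region) and neighbouring CCAAT boxes, which bind NF-Y. Macrophages grown from bone marrow divide while their growth factor is present, and several of these genes, Mki67 among them, are used as markers of dividing cells.

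The stretches before the RefSeq start of 7 of the genes are shown because the results below turn on these genes. Ccnb2, Ube2c and Kif11 had the largest falls with S1P. Mki67 and Top2a are the members of the chromosome structure group with the highest mean FPKM. Cdc20 is the activator of the anaphase-promoting complex, and Pttg1 is the 1 gene of the 48 not called lower with S1P. Each line is the 200 bases before the RefSeq start of the gene (GRCm38.p6), 5′ to 3′ on the gene's strand, with letters of a CHR (TTTGAA or TTCGAA) or of a CCAAT box in capitals on either strand, so that TTCAAA and ATTGG are matches read on the other strand.
Ccnb2: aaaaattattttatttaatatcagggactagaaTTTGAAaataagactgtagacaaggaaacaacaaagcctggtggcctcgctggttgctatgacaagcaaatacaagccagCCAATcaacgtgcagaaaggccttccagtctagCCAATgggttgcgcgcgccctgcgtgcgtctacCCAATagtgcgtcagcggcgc
Ube2c: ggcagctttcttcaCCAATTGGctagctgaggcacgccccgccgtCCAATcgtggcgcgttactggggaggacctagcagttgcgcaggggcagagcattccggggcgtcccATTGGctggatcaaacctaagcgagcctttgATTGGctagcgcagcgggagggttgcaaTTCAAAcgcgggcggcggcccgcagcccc
Kif11: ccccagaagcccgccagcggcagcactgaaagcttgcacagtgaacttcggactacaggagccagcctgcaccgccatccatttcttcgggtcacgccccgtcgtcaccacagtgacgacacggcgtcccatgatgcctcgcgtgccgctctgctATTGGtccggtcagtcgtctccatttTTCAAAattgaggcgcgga
Mki67: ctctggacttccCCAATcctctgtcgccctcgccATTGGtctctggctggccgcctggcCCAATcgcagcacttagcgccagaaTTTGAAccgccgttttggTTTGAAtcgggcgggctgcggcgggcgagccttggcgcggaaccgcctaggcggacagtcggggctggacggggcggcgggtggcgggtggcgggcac
Top2a: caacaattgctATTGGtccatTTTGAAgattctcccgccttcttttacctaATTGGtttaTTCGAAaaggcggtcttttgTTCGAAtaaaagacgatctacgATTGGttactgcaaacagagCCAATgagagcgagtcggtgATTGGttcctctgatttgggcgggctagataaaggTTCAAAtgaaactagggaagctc
Cdc20: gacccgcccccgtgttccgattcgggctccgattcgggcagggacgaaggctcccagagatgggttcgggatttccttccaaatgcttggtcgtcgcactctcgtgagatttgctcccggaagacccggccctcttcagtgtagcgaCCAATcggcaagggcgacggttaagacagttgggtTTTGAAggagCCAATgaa
Pttg1: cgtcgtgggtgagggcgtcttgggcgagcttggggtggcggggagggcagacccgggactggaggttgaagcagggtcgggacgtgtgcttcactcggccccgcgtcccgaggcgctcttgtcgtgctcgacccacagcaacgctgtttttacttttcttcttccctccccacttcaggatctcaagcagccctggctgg
These stretches lie at Ccnb2 chr9:70421555-70421754 on the minus strand, Ube2c chr2:164769729-164769928 on the plus strand, Kif11 chr19:37376182-37376381 on the plus strand, Mki67 chr7:135716380-135716579 on the minus strand, Top2a chr11:99024190-99024389 on the minus strand, Cdc20 chr4:118437344-118437543 on the minus strand, Pttg1 chr11:43425982-43426181 on the minus strand. The stretch of Top2a holds 4 CHR and 5 CCAAT matches. The window of Pttg1 holds 0 matches of either kind. That window lies wholly inside the gene as annotated by GENCODE (chr11:43420250-43426251). The windows of Kif2c, Cdca8, Cdca3 and Kif4, not printed here, also lie wholly inside their GENCODE genes, and each holds a CHR match. For Pttg1 and these genes the bases before the GENCODE start were not searched. Their promoters cannot be compared with the others. Matches are letters found in a window and not evidence of binding.

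Libraries held 16.6 to 25.2 M gene-assigned reads (M, 1e6), and a gene of the list held 170 reads (Ckap2, lowest library) to 18777 reads (Mki67, highest library) where whole reads could be recovered, which was so for 45 of the 48. Trem2, the targeted gene, had 35.7 to 40.7 FPKM in 11 of the 12 KO libraries and 74.5 to 109 FPKM in the 12 WT libraries, and the library labelled KO untreated 81 had 79.6 FPKM, within the WT range. The same library had 4258 FPKM of the macrophage gene Lyz2, 738 FPKM of Cd14 and 138 FPKM of Fcgr1, while the other 3 KO untreated libraries had 2495 to 2941, 536 to 552 and 66.9 to 70.7 FPKM. Results that use this library are also given without it. The 8 macrophage markers were all above 1 FPKM in every group, while the 6 hepatocyte and 5 fibroblast markers stayed below 1 FPKM in all 24 libraries. The library replicates are not named as separate mice or cultures, and the p-values measure the spread between libraries, which may be technical. The fit took 1 spread per gene over all 6 groups. The median coefficient of variation of the 48 genes was 29.25% in WT S1P and 3.51 to 5.83% in the other groups. SEs, intervals and p-values of comparisons without WT S1P therefore also carry the spread of WT S1P. Of the 48 genes, 14 share annotated exon bases with another gene, up to 29.3% of the exons of Kif20a (with Cdc23) and 22.8% of those of Ube2c (with Tnnc2). No label states whether strand was used in counting, and reads of such neighbours cannot be told apart.

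In WT macrophages the mitosis and G2/M genes fell together with S1P and, by less, with ACM, and in KO macrophages 0 of 48 passed the test with either treatment. Summed over the 48 genes, the level was 711, 584, 399 and 422 FPKM in the WT S1P libraries 25, 26, 27 and 28. It was 935 to 967 FPKM in the WT ACM libraries, against 1181 to 1233 FPKM in the WT untreated libraries. The KO S1P libraries held 1086 to 1100 FPKM and the KO ACM libraries 1122 to 1148 FPKM, against 1098, 1102 and 1109 FPKM in 3 KO untreated libraries and 1007 FPKM in the library labelled KO untreated 81. As a share of the WT untreated mean, the group means were 90.7% in KO S1P, 94.2% in KO ACM, 89.7% in KO untreated (91.7% without library 81), 44.0% in WT S1P and 79.4% in WT ACM. In bulk RNA, fewer dividing cells and less of these transcripts per dividing cell cannot be told apart.

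**Figure D1:**
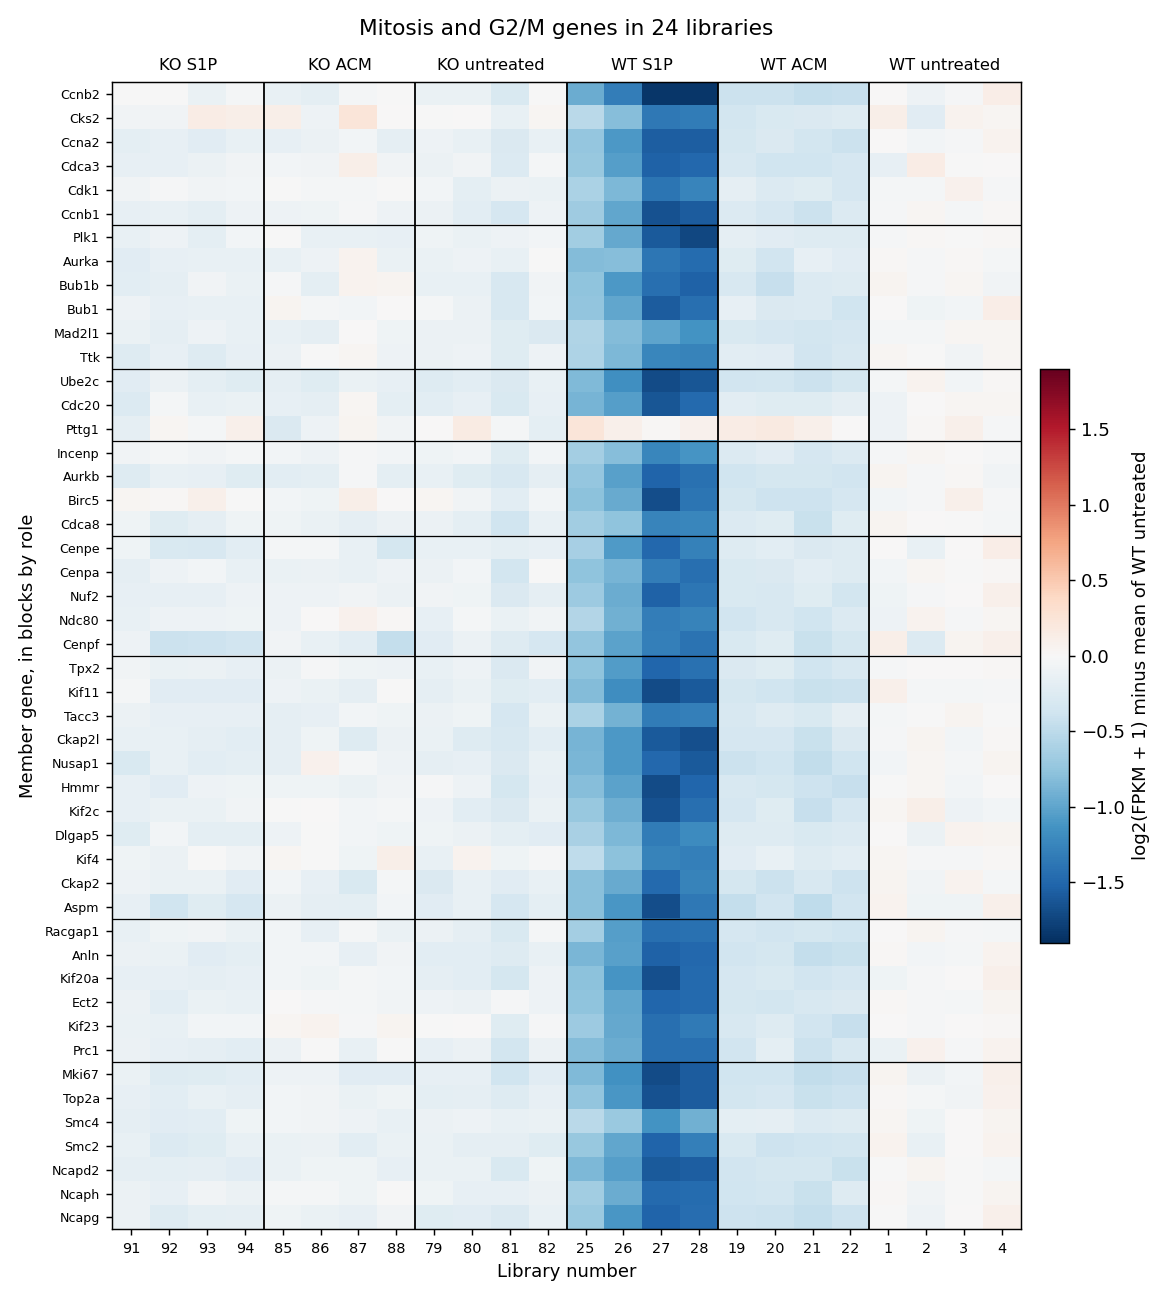
Level of each of the 48 genes (down the page, in blocks by role) in each of the 24 libraries (across, by library number), as log2(FPKM + 1) minus the mean of the WT untreated libraries, with blue lower and red higher. The 4 WT S1P libraries stand out as blue in every row but Pttg1, libraries 27 and 28 more than 25 and 26, the WT ACM libraries are pale blue, and the KO groups are near the WT untreated level.

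Between WT S1P and WT untreated, 47 of 48 genes were called lower and 0 higher by limma at an adjusted p under 0.05 (Benjamini-Hochberg over 11377 genes), where 27.2% of all genes were called lower. The median difference over the list was -1.18 in log2(FPKM + 1) units, beside 0.00 over all genes tested, and the range was -1.49 to 0.10. The same 47 genes had all 4 WT S1P libraries below all 4 WT untreated libraries, as did 23.3% of all genes. As a percentage of the WT untreated mean FPKM, the WT S1P mean ran from 35.8% for Ccnb2 to 108% for Pttg1, with a median of 42.5%. Between WT ACM and WT untreated, 32 of 48 were called lower and 0 higher, where 9.85% of all genes were called lower, with a median of -0.32 beside 0.00 over all genes and a range of -0.42 to 0.11. All 4 WT ACM libraries lay below all 4 WT untreated libraries for 46 of 48 genes, the exceptions being Pttg1 and Cenpf, and for 13.6% of all genes, and the median WT ACM level was 78.5% of WT untreated. The count of 32 moved to 13 to 21 when any 1 WT ACM or WT untreated library was left out (7.17 to 8.11% of all genes called lower). It was 43 without WT S1P library 25 (11.6%) and 47 in a fit of WT ACM and WT untreated alone (12.0%). With every library left out in turn, 9 of the 32 stayed called each time (Anln, Aspm, Aurkb, Ckap2, Mad2l1, Mki67, Ncapd2, Ncapg and Nusap1), and the ACM calls of the other 23, also where they are named or counted by role, were each lost without at least 1 library. The direct difference, WT S1P minus WT ACM, was called lower for 47 of 48 genes (23.0% of all genes were called lower), with a median of -0.84.

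**Figure D2:**
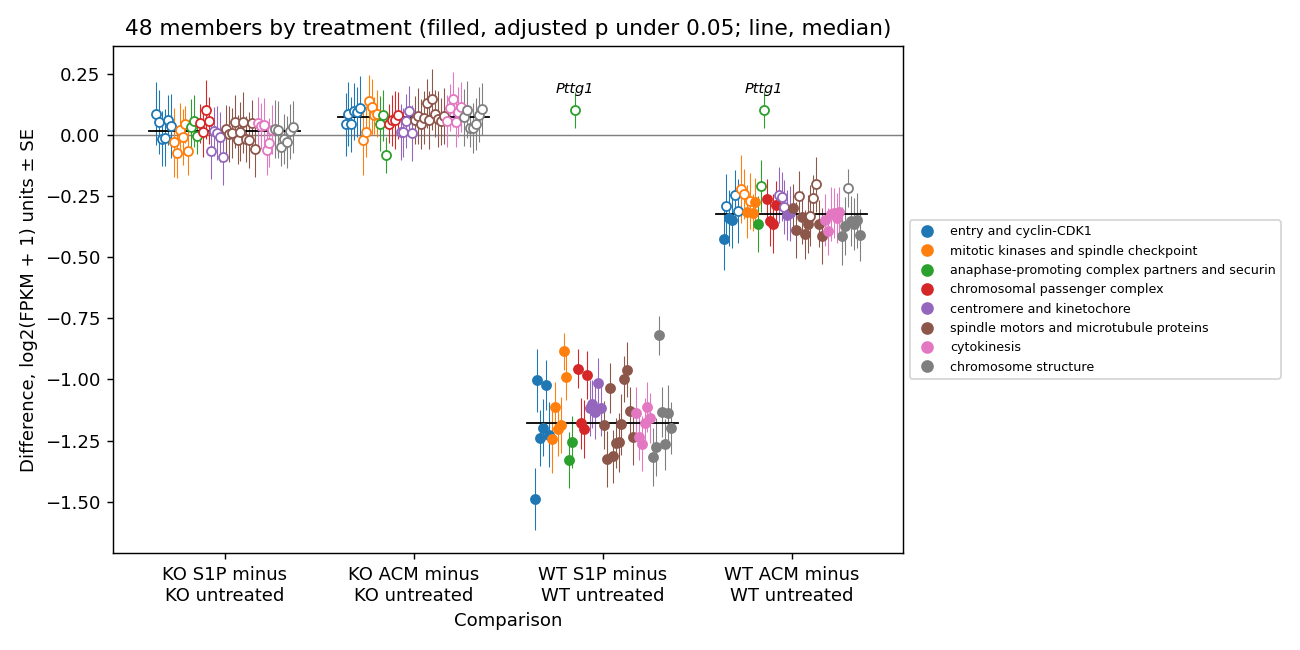
Difference of each gene with treatment, in log2(FPKM + 1) units ± SE from limma, coloured by role, with filled points at an adjusted p under 0.05 and a black line at the median. The KO points of both treatments lie around 0 and are all open, the WT S1P points lie between -0.82 and -1.49 except Pttg1 at 0.10, and the WT ACM points lie between -0.20 and -0.42 except Pttg1 at 0.11.

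The entry group holds cyclins A2, B1 and B2, their kinase Cdk1, the Cdk subunit Cks2 and Cdca3, an adaptor for destruction of the Cdk1 inhibitor Wee1. With S1P in WT cells, 6 of 6 fell, and with ACM 3 of 6 did (Ccnb2, Ccna2 and Cdca3). Ccnb2 (cyclin B2, chr9:70407692-70421547, minus strand) had 29.2, 22.5, 15.3 and 15.1 FPKM in WT S1P libraries and 43.0, 43.1, 41.7 and 42.0 FPKM in WT ACM libraries, against 57.4, 53.3, 56.3 and 62.6 FPKM in WT untreated libraries. The 3 groups did not overlap, in the order WT S1P, WT ACM, WT untreated. Its difference of -1.49 ± 0.13 (SE; adjusted p = 4.23e-09) was the largest fall in the list with S1P, and -0.42 ± 0.13 (adjusted p = 0.0212) was the largest with ACM. Cks2 (chr13:51645232-51650660, plus strand) had 27.7, 22.2, 15.0 and 15.2 FPKM in WT S1P libraries, against 43.0, 34.3, 41.8 and 40.8 FPKM in WT untreated libraries. It fell by 1.00 ± 0.13 with S1P (adjusted p = 1.12e-06), and its ACM difference of -0.29 ± 0.13 did not pass the test (adjusted p = 0.116). Cdk1 itself averaged 12.1 ± 3.34 FPKM in WT S1P and 20.9 ± 0.903 FPKM in WT ACM, against 24.998 ± 1.04 FPKM in WT untreated (SD, n = 4 each).

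The mitotic kinases and spindle checkpoint genes fell with S1P in 6 of 6 cases, and with ACM in 3 of 6 (Bub1b, Mad2l1 and Ttk). Plk1, the kinase that drives centrosome maturation and mitotic entry (chr7:122159439-122169873, plus strand), had 22.4, 17.8, 11.2 and 10.1 FPKM in WT S1P libraries, against 35.2, 36.4, 35.6 and 36.3 FPKM in WT untreated libraries. The difference was -1.24 ± 0.14 (adjusted p = 1.67e-07), and with ACM it was -0.22 ± 0.14 (adjusted p = 0.288), although 30.1 to 31.7 FPKM in the WT ACM libraries did not reach into the WT untreated range. Aurka, the spindle pole kinase Aurora A (chr2:172356190-172370535, minus strand), had 13.5, 13.6, 8.90 and 8.28 FPKM in WT S1P libraries, against 24.0 to 25.1 FPKM in WT untreated libraries, a fall of 1.11 ± 0.10 in log2 units. Mad2l1, the checkpoint protein Mad2, was the gene with the third smallest change in the list: -0.88 ± 0.08 with S1P, where its levels were 4.55 to 7.19 FPKM, against 10.8 to 11.5 FPKM in WT untreated libraries. With ACM Mad2l1 fell by 0.32 ± 0.08 (adjusted p = 0.00463), a smaller SE than those of Plk1 and Aurka.

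Of the partners and target of the anaphase-promoting complex, the 2 that activate or load it fell and securin was not called. Ube2c, the ubiquitin-conjugating enzyme that works with the complex (chr2:164769898-164778822, plus strand), had 19.9, 15.7, 10.5 and 11.1 FPKM in WT S1P libraries and 27.02 to 28.7 FPKM in WT ACM libraries, against 35.3, 38.3, 34.9 and 37.0 FPKM in WT untreated libraries. It fell by 1.33 ± 0.11 with S1P (adjusted p = 3.76e-09) and by 0.36 ± 0.11 with ACM (adjusted p = 0.0256). Cdc20, the activator that opens anaphase (chr4:118432901-118437352, minus strand), had 17.6, 15.6, 10.1 and 11.2 FPKM in WT S1P libraries, against 31.1, 33.6, 34.2 and 34.3 FPKM in WT untreated libraries. Its S1P difference was -1.26 ± 0.11 (adjusted p = 3.09e-09), while its ACM difference of -0.21 ± 0.11 did not pass the test (adjusted p = 0.171).

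Pttg1, securin, which holds separase inactive until anaphase (chr11:43420250-43426251, minus strand), stood apart. It had 13.1, 11.9, 11.3 and 11.8 FPKM in WT S1P libraries and 12.3, 12.7, 12.0 and 11.1 FPKM in WT ACM libraries, against 10.3, 11.2, 12.0 and 10.9 FPKM in WT untreated libraries. These groups overlapped, and the differences were 0.10 ± 0.07 with S1P (adjusted p = 0.253) and 0.11 ± 0.07 with ACM (adjusted p = 0.342). The 95% interval of the S1P difference, -0.05 to 0.26, does not reach the smallest fall of the other 47 genes, that of Smc4 at -0.82. In the KO groups Pttg1 averaged 11.0 ± 0.939 FPKM with S1P, 10.4 ± 1.08 FPKM with ACM and 11.0 ± 1.18 FPKM untreated (SD, n = 4 each). Across all 24 libraries it ran from 8.96 to 13.1 FPKM, and its annotated exons share no bases with another gene.

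**Figure D3:**
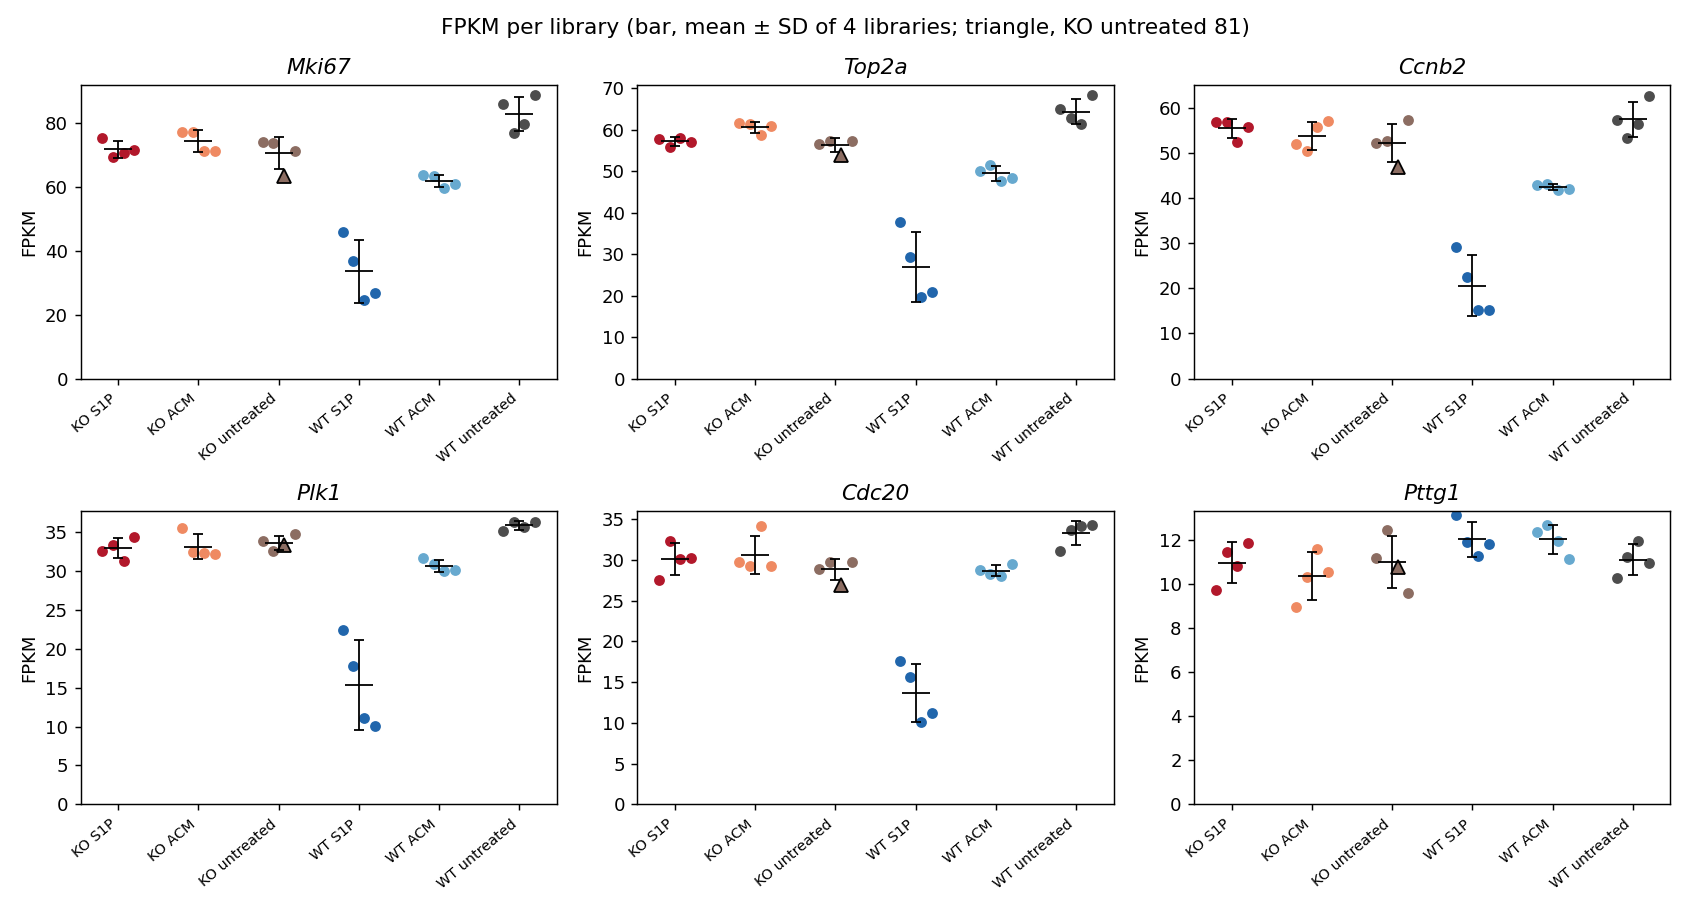
FPKM in each library for 6 genes (points), with the mean ± SD of 4 libraries (bars) and the library labelled KO untreated 81 as a triangle, each axis starting at 0. For Mki67, Top2a, Ccnb2, Plk1 and Cdc20 the 4 WT S1P libraries lie below every other library, with 25 and 26 above 27 and 28, and for Pttg1 all 6 groups overlap.

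The chromosomal passenger complex, which corrects wrong kinetochore attachments, fell in each of its members, 4 of 4 with S1P and 4 of 4 with ACM. Incenp, its scaffold (chr19:9872296-9899551, minus strand), had 40.7, 36.3, 26.6 and 29.1 FPKM in WT S1P libraries and 51.6 to 55.3 FPKM in WT ACM libraries, against 63.3 to 66.3 FPKM in WT untreated libraries. The falls were 0.96 ± 0.08 with S1P (adjusted p = 2.79e-09) and 0.26 ± 0.08 with ACM (adjusted p = 0.0233). Aurkb, its kinase Aurora B (chr11:69045647-69051664, plus strand), had 15.4, 12.4, 8.57 and 9.22 FPKM in WT S1P libraries, against 25.2 to 27.5 FPKM in WT untreated libraries, and fell by 1.18 ± 0.10. Birc5, survivin, fell by 1.20 ± 0.12 and Cdca8, borealin, by 0.98 ± 0.10.

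At centromeres and kinetochores, 5 of 5 genes fell with S1P and 2 of 5 with ACM (Ndc80 and Cenpf). Cenpe, a kinetochore motor (chr3:135212537-135273611, plus strand), had 9.23, 6.51, 4.59 and 5.52 FPKM in WT S1P libraries, against 14.9, 13.3, 14.9 and 16.3 FPKM in WT untreated libraries. Cenpa, the centromeric histone (chr5:30666777-30674830, plus strand), had 8.09, 7.34, 5.18 and 4.71 FPKM in WT S1P libraries, against 13.9 to 14.7 FPKM in WT untreated libraries. The S1P differences were -1.12 ± 0.11 for Cenpe and -1.10 ± 0.10 for Cenpa, with no overlap between the groups, and the ACM differences were -0.24 ± 0.11 and -0.25 ± 0.10, neither of them called (adjusted p = 0.135 and 0.0747).

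The spindle motors and microtubule proteins fell in 11 of 11 cases with S1P and in 7 of 11 with ACM. Kif11, the motor Eg5 that pushes the spindle poles apart (chr19:37376403-37421859, plus strand), had 17.05, 13.1, 8.82 and 9.61 FPKM in WT S1P libraries and 22.9 to 24.4 FPKM in WT ACM libraries, against 30.0 to 33.3 FPKM in WT untreated libraries. It fell by 1.33 ± 0.11 with S1P (adjusted p = 4.63e-09) and by 0.39 ± 0.11 with ACM (adjusted p = 0.0193). Tpx2, the spindle assembly factor that activates Aurora A (chr2:152847964-152895321, plus strand), had 18.6, 15.0, 10.7 and 11.5 FPKM in WT S1P libraries, against 31.7 to 32.7 FPKM in WT untreated libraries, a fall of 1.19 ± 0.10. Aspm, a spindle pole protein, had the lowest value of any gene in the list, 1.85 FPKM in WT S1P library 27, and was among the 3 largest falls with ACM at -0.41 ± 0.11 (adjusted p = 0.0128). Kif4, a chromosome-arm motor, fell by 0.96 ± 0.11 with S1P and had the second smallest ACM difference, -0.20 ± 0.11 (adjusted p = 0.222).

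All 6 cytokinesis genes fell with both treatments. Racgap1, a subunit of the centralspindlin complex (chr15:99620496-99651656, minus strand), had 14.7, 10.8, 8.12 and 8.19 FPKM in WT S1P libraries and 18.0 to 18.7 FPKM in WT ACM libraries, against 22.9 to 24.4 FPKM in WT untreated libraries. The falls were 1.14 ± 0.11 (adjusted p = 1.31e-08) and 0.35 ± 0.11 (adjusted p = 0.0232). Anln, the contractile ring scaffold anillin (chr9:22332012-22389188, minus strand), had 10.8, 9.58, 6.42 and 6.69 FPKM in WT S1P libraries and 14.9 to 16.1 FPKM in WT ACM libraries, against 19.9 to 21.7 FPKM in WT untreated libraries. It had the smallest adjusted p of the list with S1P (-1.24 ± 0.10, adjusted p = 8.77e-10), and with ACM it fell by 0.39 ± 0.10 (adjusted p = 0.00507).

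The genes of chromosome structure fell in 7 of 7 cases with S1P and in 6 of 7 with ACM, Smc4 being the exception. Mki67, the proliferation marker Ki-67 that coats mitotic chromosomes (chr7:135689784-135716361, minus strand), had the highest mean FPKM of the list over the 24 libraries, 65.8. It had 46.0, 36.8, 24.6 and 26.9 FPKM in WT S1P libraries and 63.7, 63.5, 59.6 and 60.8 FPKM in WT ACM libraries, against 85.9, 76.9, 79.9 and 88.7 FPKM in WT untreated libraries. It fell by 1.32 ± 0.12 with S1P (adjusted p = 6.78e-09) and by 0.41 ± 0.12 with ACM (adjusted p = 0.0151). Top2a, the topoisomerase that untangles sister chromatids (chr11:98992943-99024189, minus strand), had 37.7, 29.2, 19.6 and 20.9 FPKM in WT S1P libraries and 47.7 to 51.6 FPKM in WT ACM libraries, against 61.3 to 68.3 FPKM in WT untreated libraries. Its falls were 1.28 ± 0.12 and 0.37 ± 0.12 (adjusted p = 9.87e-09 and 0.0273). Smc4, a core subunit of condensin, had the smallest S1P fall of the 47, 0.82 ± 0.08, with 30.8, 26.8, 19.6 and 23.0 FPKM in WT S1P libraries, against 41.7 to 46.1 FPKM in WT untreated libraries.

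The 4 WT S1P libraries were uneven for every gene of the list. Libraries 25 and 26 were above libraries 27 and 28 for 48 of 48 genes, library 25 was the highest for 47, and library 27 was the lowest for 36 and library 28 for 12. The coefficient of variation of the summed FPKM was 27.7% in WT S1P, against 1.59% in WT ACM and 1.80% in WT untreated. Leaving out any 1 library left 47 genes called lower, so the direction did not rest on a single library, while its size depended on which libraries were read: for Mki67 the S1P difference ran from -1.48 to -1.19 as 1 library at a time was left out. The macrophage marker sum was 4646 to 6438 FPKM in WT S1P and 6544 to 7275 FPKM in WT ACM libraries, against 7897 to 8094 FPKM in WT untreated libraries, and the monocyte marker sum was 9.07 to 17.2 FPKM in WT S1P and 21.04 to 22.5 FPKM in WT ACM, against 24.2 to 25.97 FPKM in WT untreated. The macrophage markers did not move alike. Lyz2 made up most of the sum, with 2652 to 4131 FPKM in WT S1P and 4055 to 4754 FPKM in WT ACM, against 5697 to 5917 FPKM in WT untreated. Cd68 was at 979 to 1039 FPKM in WT S1P and 981 to 1015 FPKM in WT ACM, against 779 to 883 FPKM in WT untreated. The granulocyte marker sum was 0.317 to 0.980 FPKM in WT S1P and 0.745 to 1.57 FPKM in WT ACM, against 1.31 to 1.87 FPKM in WT untreated, with 6 of 6 markers below 1 FPKM throughout. The part of these shifts in the result was not tested.

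In KO macrophages none of the 48 genes passed the test with either treatment. Between KO S1P and KO untreated, 0 of 48 genes were called by limma in either direction and 0 had an unadjusted p under 0.05, where 0.00879% of all genes (1 gene) were called. The differences ran from -0.09 for Cenpf to 0.11 for Birc5, with a median of 0.02, and the widest bounds of the 48 intervals (95%) were -0.33 and 0.36, which do not reach the -0.82 of Smc4 in WT. Between KO ACM and KO untreated, 0 of 48 were called and 0 had an unadjusted p under 0.05 (0.00879% of all genes called), with a median of 0.07 and a range of -0.08 for Pttg1 to 0.15 for Kif2c. Here 46 of 48 differences were above 0, and 42 of 48 without library 81. The direct difference, KO S1P minus KO ACM, gave 0 calls and 0 unadjusted p under 0.05 (0.0352% of all genes called), with 43 of 48 differences below 0 and a median of -0.07. All KO S1P libraries lay below all KO ACM libraries for 10 of 48 genes, and above for 0. All KO ACM libraries lay above all KO untreated libraries for 4 genes (5 without library 81), and below for 0. All KO S1P libraries lay below all KO untreated libraries for 0 genes (4 without library 81), and above for 0. The share of all genes without such overlap was not counted.

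The coefficient of variation of the summed FPKM was 0.599% in KO S1P and 0.996% in KO ACM. It was 4.48% in KO untreated and 0.529% there without library 81. Mki67 had 75.3, 69.4, 70.6 and 71.7 FPKM in KO S1P libraries and 77.2, 77.4, 71.3 and 71.3 FPKM in KO ACM libraries, against 74.2, 73.8, 63.4 (library 81) and 71.2 FPKM in KO untreated libraries. Ccnb2 had 56.8, 56.9, 52.4 and 55.7 FPKM in KO S1P libraries and 51.9, 50.4, 55.8 and 57.0 FPKM in KO ACM libraries, against 52.2, 52.5, 46.8 (library 81) and 57.2 FPKM in KO untreated libraries. Both genes overlapped across the 3 KO groups. The library labelled KO untreated 81 was the lowest of its group for 37 of 48 genes. Without it, KO S1P minus KO untreated had a median of -0.02 and KO ACM minus KO untreated a median of 0.04, with 0 of 48 genes called and 0 at an unadjusted p under 0.05 in either, where 0.185% and 0.0439% of all genes were called.

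Set between the genotypes, the list split by treatment. Between KO S1P and WT S1P, 47 of 48 genes were called higher in KO and 0 lower (26.9% of all genes were called higher), with a median difference of 1.03 beside 0.00 over all genes, and all 4 KO S1P libraries lay above all 4 WT S1P libraries for those 47 and for 23.9% of all genes. Ccnb2 was the largest at 1.44 ± 0.13 (adjusted p = 6.74e-09). Anln was at 1.08 ± 0.10 and Incenp at 0.90 ± 0.08 (adjusted p = 6.40e-09 and 6.33e-09), and Pttg1 was at -0.12 ± 0.07 (adjusted p = 0.172). Between KO ACM and WT ACM, 11 of 48 were called higher in KO and 1, Pttg1, lower (12.5% of all genes were called higher and 15.5% lower), with a median of 0.23. At an unadjusted p under 0.05 by limma, 30 genes were higher, and the share of all genes at that threshold was not counted. Without 1 of the WT ACM libraries the 11 called higher became 4 to 6 (10.3 to 10.7% of all genes called higher). Without 1 of the KO ACM libraries they became 4 to 8 (10.0 to 11.3%). Without 1 of the WT S1P libraries they became 11 to 35 (12.3 to 14.1%), the highest without library 25. A fit of these 2 groups alone gave 43 (14.8% of all genes called higher). Anln, Kif23 and Nusap1 stayed called with each library left out, and the call of Pttg1 did not. Kif23, a centralspindlin motor, had 15.6, 16.0, 15.0 and 15.9 FPKM in KO ACM libraries, against 12.1, 12.7, 11.7 and 11.0 FPKM in WT ACM libraries, a difference of 0.37 ± 0.10 (adjusted p = 0.00907). Nusap1, a microtubule-bundling protein, differed by 0.35 ± 0.10 (adjusted p = 0.0125). For 44 of 48 genes all 4 KO ACM libraries lay above all 4 WT ACM libraries, as they did for 15.1% of all genes. Cell type markers also differed between the genotypes. The granulocyte marker sum was 2.86 to 4.21 FPKM in KO S1P, against 0.317 to 0.980 FPKM in WT S1P, and 3.42 to 4.55 FPKM in KO ACM, against 0.745 to 1.57 FPKM in WT ACM, with 4 of 6 markers below 1 FPKM in all libraries of each KO group. The monocyte marker sum was 19.1 to 21.5 FPKM in KO S1P, against 9.07 to 17.2 FPKM in WT S1P, and 17.4 to 21.5 FPKM in KO ACM, against 21.04 to 22.5 FPKM in WT ACM. The macrophage marker sum was 4913 to 5105 FPKM in KO S1P, against 4646 to 6438 FPKM in WT S1P, and 4798 to 5167 FPKM in KO ACM, against 6544 to 7275 FPKM in WT ACM. The markers of this sum did not move alike. With S1P, Mertk, Adgre1, Csf1r and Itgam were higher in every KO library than in any WT library, and Cd68 was lower. Lyz2, Cd14 and Fcgr1 overlapped. With ACM, Mertk and Itgam were higher in KO, Lyz2, Cd14, Cd68 and Fcgr1 were lower, and Adgre1 and Csf1r overlapped. Mertk had 14.6 to 15.6 FPKM in KO S1P, against 7.48 to 8.65 FPKM in WT S1P. Cd68 had 814 to 886 FPKM in KO S1P, against 979 to 1039 FPKM in WT S1P. Their part in the result was not tested.

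**Figure D4:**
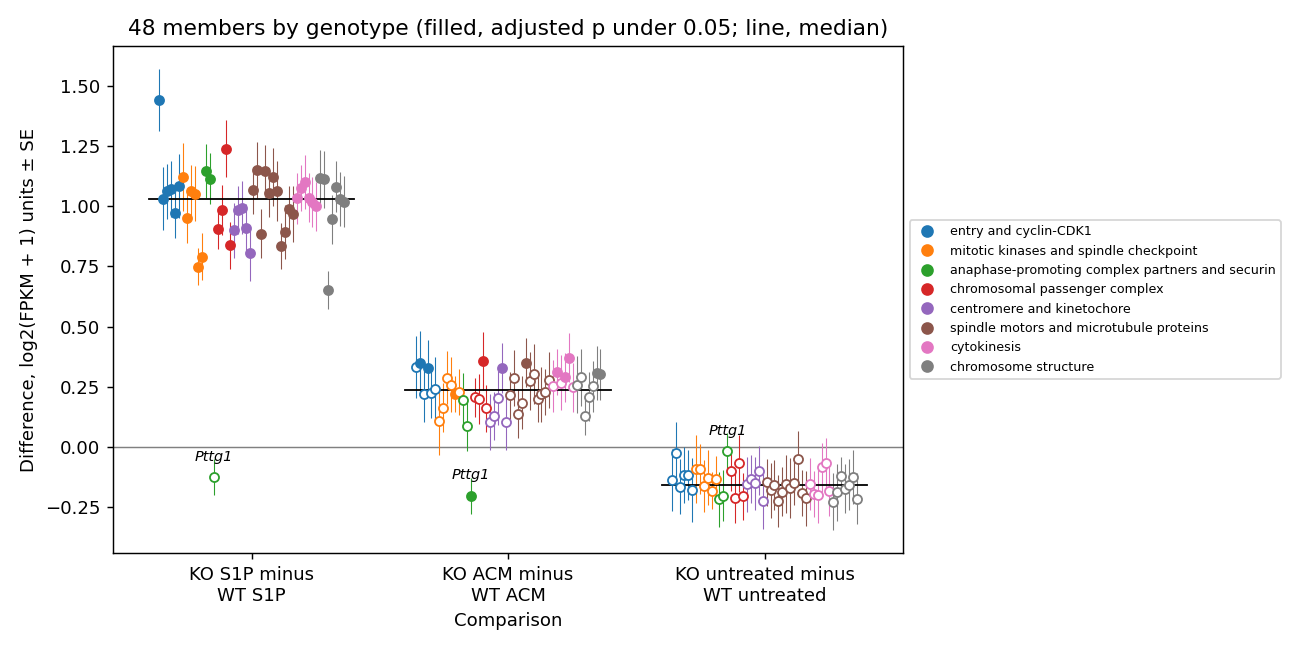
Difference of each gene between genotypes, KO minus WT, within each treatment, in log2(FPKM + 1) units ± SE from limma, coloured by role, with filled points at an adjusted p under 0.05 and a black line at the median. With S1P the points lie from 0.65 to 1.44 apart from Pttg1 at -0.12, with ACM the median is 0.23 and 12 points are filled, and without treatment all 48 points lie below 0 and none is filled.

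Without treatment none of the 48 genes passed the test between the genotypes. Between KO untreated and WT untreated, 0 of 48 genes were called by limma and 2 had an unadjusted p under 0.05 (1.21% of all genes were called lower and 1.26% higher), although 48 of 48 differences were below 0, with a median of -0.16. Without library 81, 47 of 48 were below 0 and the median was -0.12. For 26 of 48 genes all 4 KO untreated libraries lay below all 4 WT untreated libraries, as they did for 5.34% of all genes. Here the granulocyte marker sum was 1.94 to 4.29 FPKM in KO, against 1.31 to 1.87 FPKM in WT, and the monocyte marker sum was 20.004 to 21.7 FPKM in KO, against 24.2 to 25.97 FPKM in WT, and their part was not tested. Mad2l1 had 10.3, 10.3, 9.43 (library 81) and 9.02 FPKM in KO untreated libraries, against 10.8, 10.9, 11.5 and 11.4 FPKM in WT untreated libraries, a difference of -0.18 ± 0.08 (adjusted p = 0.228). In a fit of these 2 groups alone without library 81, a setting chosen after seeing the data, 8 of 48 were called lower in KO (4.0% of all genes).

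The tests of the difference between genotypes in the response gave the same split. The S1P interaction, the KO change minus the WT change, was called for 47 of 48 genes, all positive (22.5% of all genes were called positive), with a median of 1.18 beside -0.01 over all genes. It was 1.58 ± 0.18 for Ccnb2 (adjusted p = 7.39e-07), 1.27 ± 0.13 for Anln (adjusted p = 2.68e-07) and 1.37 ± 0.15 for Ckap2l, a spindle protein (adjusted p = 5.91e-07). For Pttg1 it was -0.11 ± 0.11 (adjusted p = 0.448). Without library 81 it was again called for 47 genes (22.3% of all genes), with a median of 1.14. The ACM interaction was called for 12 of 48, all positive (7.41% of all genes were called positive), with a median of 0.41. At an unadjusted p under 0.05 by limma, 38 genes were positive, and the share of all genes at that threshold was not counted. Anln (0.51 ± 0.13), Nusap1 (0.54 ± 0.14) and Mad2l1 (0.40 ± 0.11) had the smallest adjusted p-values, 0.0126, 0.0129 and 0.0132. Without library 81 the ACM interaction was called for 4 (Anln, Mad2l1, Ncapg and Nusap1), where 6.16% of all genes were called positive. Leaving out each of the 24 libraries in turn gave 4 to 39 (5.76 to 9.64% of all genes). The count was 4 to 8 without any 1 KO S1P, KO ACM, WT ACM or WT untreated library (5.76 to 7.17% of all genes). It was 39 without WT S1P library 25 (9.64%).

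Of 13 D-type cyclins, their kinases and inhibitors of cyclin-dependent kinases, 8 fell and 1 rose with S1P in WT cells (median -0.31). With ACM 4 fell and 2 rose (median -0.12). Of all genes, 27.2% were called lower with S1P and 9.85% with ACM. Cdkn1c, the inhibitor p57, had 63.4, 84.4, 115 and 111 FPKM in WT S1P libraries 25, 26, 27 and 28 and 11.6 to 13.1 FPKM in WT ACM libraries, against 0.999 to 1.61 FPKM in WT untreated libraries. It rose by 5.32 ± 0.16 with S1P and by 2.52 ± 0.16 with ACM, while its KO differences were -0.42 ± 0.16 with S1P and -0.27 ± 0.16 with ACM (adjusted p = 0.375 and 0.671). The 2 WT S1P libraries with the lowest levels of the mitosis genes, 27 and 28, had the highest Cdkn1c, and its part in the result was not tested. Cdkn1a, the inhibitor p21, stayed between 100.2 and 120.2 FPKM in all 24 libraries and was not called in WT with S1P (0.05 ± 0.04) or ACM (0.08 ± 0.04). Cdkn2c, the inhibitor p18, fell by 1.20 ± 0.10 with S1P in WT cells (adjusted p = 3.83e-09).

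Other genes of the cell cycle, taken from lists by function, moved the same way with S1P in WT cells to differing extents. The share of all genes called lower there was 27.2%. Other mitotic motors fell in 8 of 8 cases (median -1.08, Kifc1 -1.19 ± 0.11), other kinetochore proteins in 23 of 23 (median -0.88, Ska3 -1.20 ± 0.10), condensin II subunits in 3 of 3 (median -0.86, Ncapg2 -0.86 ± 0.07) and genes of DNA replication and G1/S in 39 of 39 (median -0.86, Mcm4 -1.02 ± 0.08). Of the mitotic entry switch, 10 of 12 fell (median -0.86) and Ensa, a phosphatase inhibitor that acts downstream of Mastl, rose by 0.10 ± 0.03 (adjusted p = 0.0188), while Mastl, its kinase, fell by 1.11 ± 0.09. Of cohesin and the proteins that protect or release it, 11 of 13 fell (median -0.59), among them Sgo2a, the protector shugoshin 2, by 0.87 ± 0.06.

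Less uniform were the regulators above and below the list, read beside the same 27.2% of all genes called lower. Of 22 cell cycle transcription factors, 16 fell and 1 rose with S1P in WT cells (median -0.39). Foxm1, the activator of G2/M genes, had 10.1, 8.26, 5.30 and 5.46 FPKM in WT S1P libraries, against 17.9 to 18.3 FPKM in WT untreated libraries, a fall of 1.24 ± 0.12 (adjusted p = 1.25e-08), and with ACM its difference was -0.32 ± 0.12 (adjusted p = 0.0528). E2f7, a repressor, fell by 0.98 ± 0.08, Tfdp1, the dimer partner of E2F proteins, fell by 0.61 ± 0.04, and Nfya, a subunit of the CCAAT-binding factor NF-Y, rose by 0.12 ± 0.03 (adjusted p = 0.00175). Of 17 core subunits and co-activators of the anaphase-promoting complex, 9 fell and 2 rose (median -0.17), with Fzr1, the G1 activator Cdh1, at -0.50 ± 0.05 and the subunits Anapc16 at 0.18 ± 0.06 and Cdc26 at 0.14 ± 0.05. With S1P and with ACM in KO cells, 0 of the 150 genes of these lists (the CDK inhibitor list included) were called by limma. With each treatment 0.00879% of all genes were called. By limma, 9 and 5 of the 150 had an unadjusted p under 0.05.

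The promoter windows of the list could be read for 41 of the 48 genes (RefSeq, GRCm38.p6, 250 bases before to 50 after the start). Ccna2, Aurkb, Incenp, Tpx2, Dlgap5, Kif20a and Smc4 had no entry. The windows of Pttg1, Kif2c, Cdca8, Cdca3 and Kif4, which lie inside the annotated genes, are included in the counts. A CHR (TTTGAA or TTCGAA on either strand) was found in 31 of 41 genes (75.6%), against 21.7% of 27025 genes with a window and 16.7% of the 8359 of these that passed the filter. A CCAAT box was found in 31 of 41 (75.6%), against 41.1% of all genes and 43.1% of those that passed, and 2 or more boxes in 21 of 41 (51.2%), against 13.3% and 17.4%. Both elements occurred in 28 of 41 (68.3%), against 8.61% and 7.05%. Of the 45 CHR matches in the 43 windows of these genes, 22 lay after the start and 23 before it. Ect2 and Prc1 each had 2 overlapping windows, so the same sites of these genes were counted in both. Windows were not matched on base composition, overlapping CCAAT matches on opposite strands were counted separately, and no test was made of these shares.

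For the genes of DNA replication and G1/S the CHR and E2F letters differed: a CHR was found in 6 of 31 genes with a window (19.4%). A CCAAT box was found in 21 of 31 (67.7%), and 2 or more in 13 of 31 (41.9%). Among the other lists the CCAAT share ran from 0% (condensin II, 3 genes) to 75% (mitotic entry switch, 8 genes). The CHR share ran from 10% (D cyclins and CDK inhibitors, 10 genes) to 100% (condensin II), with 87.5% of other mitotic motors. E2F site letters (TTTCCCGC or TTTGGCGC, either strand) were found in 11 of 31 G1/S genes (35.5%), against 2 of 41 mitosis and G2/M genes (4.88%, Ncapd2 and Ncapg), 1.80% of all genes and 3.72% of those that passed the filter. Birc5, Nuf2, Tacc3, Nusap1, Ncaph and Mad2l1 had windows with 0 CHR and 0 CCAAT matches. These 6 fell with S1P by 1.20, 1.13, 1.04, 1.26, 1.14 and 0.88 in log2 units. The window of Pttg1 also held 0 matches, but it lies inside the annotated gene.

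**Figure D5:**
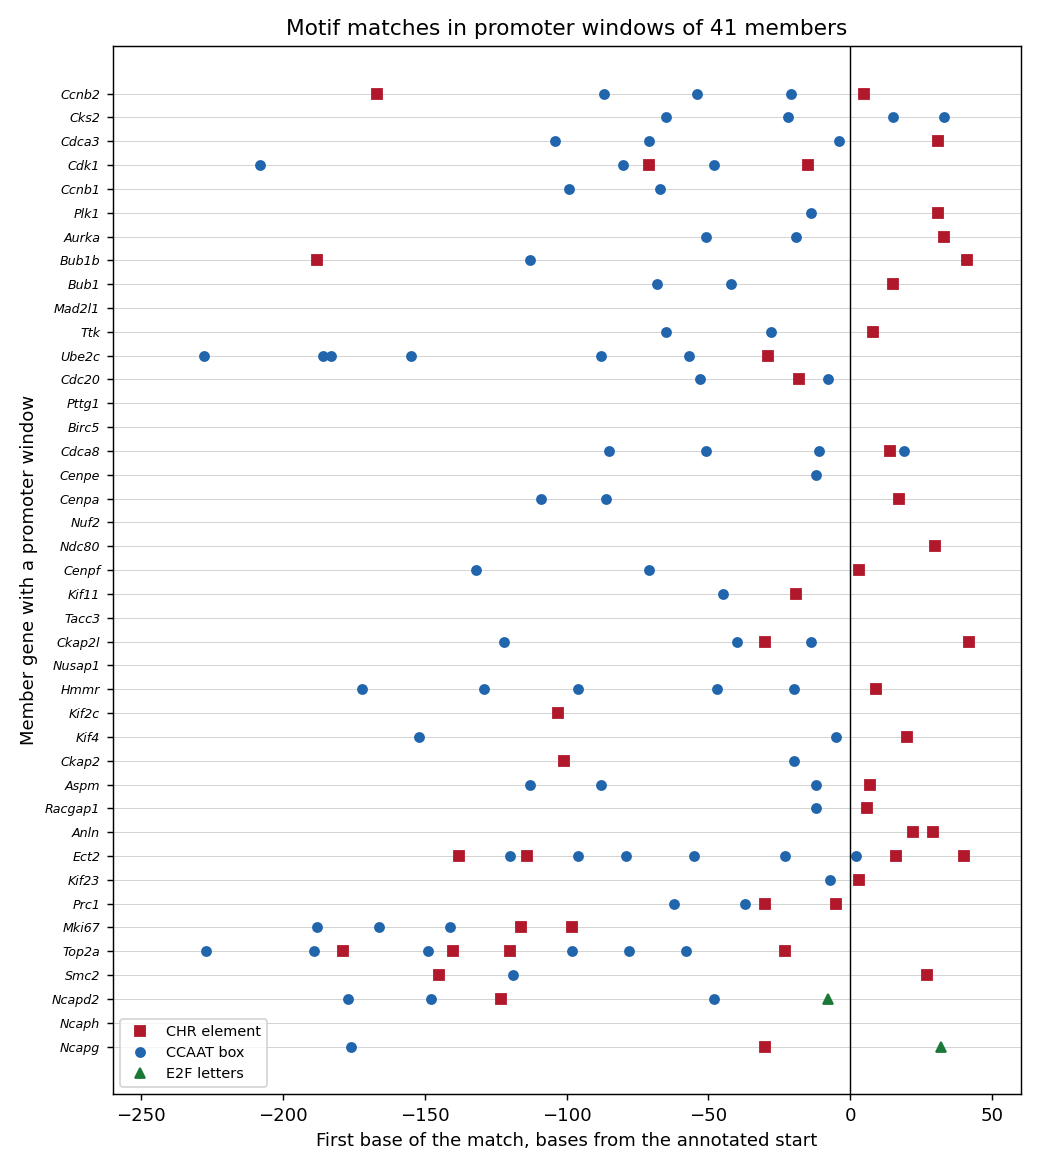
Position of each motif match in the promoter windows of 41 of the genes (down the page), as the distance in bases of its first base from the annotated start (0), with squares for CHR, circles for CCAAT and triangles for E2F letters. Most rows hold a CHR and 1 or more CCAAT boxes close to the start, and 7 rows, Pttg1 among them, hold no symbol. The windows of Pttg1, Kif2c, Cdca8, Cdca3 and Kif4 lie inside their annotated genes.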

How the data were processed

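Per the labels' protocols, Trizol extracts were enriched for mRNA on oligo(dT) beads. The authors deposited 1 table of FPKM for 54532 genes in 24 libraries, 4 in each of 6 groups. Per the submitters' processing notes, the tools were DESeq, edgeR, StringTie, featureCounts, STAR-Fusion, STAR and HISAT2 and the builds GRCm38 and mm10. Which tool made the table, its version and the use of strand: not given in the sources used here. GENCODE M21 (GRCm38) named 54495 identifiers, 37 stayed unnamed, and gene coordinates come from it. Multiplying FPKM by exon length gave whole reads for 96.4 to 96.7% of values (tolerance 0.05), and a depth of 16.6 to 25.2 M reads (M, 1e6).

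Genes at an FPKM of 1 or more in at least 4 of 24 libraries were tested on log2(FPKM + 1), a scale that understates changes of low genes, with limma 3.58.1 (R 4.3.3, mean-variance trend, 1 fit of 6 groups, 11 contrasts). Figures and promoter searches used Python 3.11.15. The fit was tested on simulated data with known changes. That simulation gave each gene the same spread in all 6 groups, so it does not cover the wider spread of WT S1P. A gene was called at an adjusted p under 0.05 (Benjamini-Hochberg, 11377 genes). The members and lists were chosen with earlier results of these data known. Named genes are the 2 of each role with the highest mean FPKM, the 3 largest falls and 3 smallest changes of each treatment comparison, the 3 smallest adjusted p-values of each genotype comparison and interaction, up to 3 of each other list with any called against it, Trem2, Cdkn1a and Cdkn1c. Other members given by value were chosen for their role after their values were seen. Alternatives were a pseudocount of 0.1, no filter, a filter at FPKM 5, TPM, median and quantile scaling, robust empirical Bayes, only the compared groups, and each library left out. FPKM is not a count, so no count test was run.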

Additional observations from a re-analysis of the deposited data

Results flagged for a closer look

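In 7 of 102 groups of 4 libraries examined (16 genes and the summed level, in 6 groups), 1 library lay far from the other 3 by Dixon's criterion, which chance alone meets in about 1 of 20 groups. In KO ACM, library 85 had 35.6 FPKM of Plk1 (the others 32.3 to 32.5), and library 87 had 34.1 FPKM of Cdc20 (the others 29.2 to 29.7), 26.05 FPKM of Aurkb (the others 22.9 to 23.1) and 18.3 FPKM of Anln (the others 19.7 to 19.9). In KO S1P, library 91 had 30.1 FPKM of Kif11 (the others 26.4 to 26.5). The library labelled KO untreated 81 had 55.03 FPKM of Incenp (the others 61.0 to 62.1) and a summed level of 1007 FPKM over the 48 genes (the others 1098 to 1109), and it is also the KO library with a WT level of Trem2. The differences between KO and WT in the response also stood out, tested as interactions: 47 of 48 genes were called for S1P and 12 of 48 for ACM.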

How the results depend on the processing

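The S1P results kept their counts: 47 genes lower in WT S1P than in WT untreated or WT ACM, 47 higher in KO S1P than in WT S1P and 47 in the S1P interaction, under each alternative and with any 1 library left out, and 0 in either treatment of KO cells. The ACM counts changed with the setting, and so did the share of all genes called, given here in brackets. The 32 genes lower in WT ACM (9.85%) became 9 with no filter (2.87%) and 13 to 43 with 1 library left out (7.17 to 11.6%). The 11 genes higher in KO ACM than in WT ACM (12.5%) became 7 at a pseudocount of 0.1 (12.3%) and 3 with no filter (4.51%). They became 28 with TPM scaling (14.7%), 43 with only the compared groups (14.8%) and 4 to 35 with 1 library left out (10.0 to 14.1%). The 1 gene lower there, Pttg1 (15.5%), became 0 with no filter (6.05%), TPM (8.46%) or quantile scaling (14.5%). It was 0 to 1 with 1 library left out (13.5 to 16.4%). The 12 genes of the ACM interaction (7.41%) became 4 at a pseudocount of 0.1 (7.13%), 3 with no filter (2.05%) and 37 with TPM scaling (13.3%). They became 20 with quantile normalization (8.52%), 46 with only the compared groups (9.94%), and 4 to 39 with 1 library left out (5.76 to 9.64%). With only the compared groups and without library 81, chosen after seeing the data, the count of the ACM interaction was 45 (9.7%). In that setting 8 genes (4.0%) were lower in KO untreated than in WT untreated in place of 0. TPM scaling put the median of all genes at -0.10 in WT ACM minus WT untreated and at 0.10 in the ACM interaction, and turned the ACM difference of Pttg1 to -0.0032, and no called difference of a gene turned round. Apart from the construction of each setting, the cause was not tested. No paired analysis was possible because no replicate number is shared between groups. The 4 libraries of a group, and the spread per gene that the main fit takes over all 6 groups with WT S1P among them, limit what can be said of differences of the size seen with ACM.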

Other observations

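Of the list of D-type cyclins, their kinases and CDK inhibitors, the D-type cyclins, which carry growth signals into the cell cycle, and their kinase Cdk4 were chosen after their values were seen. Ccnd1 fell by 0.63 ± 0.10 with S1P in WT cells (adjusted p = 1.13e-05) and its ACM difference was 0.08 ± 0.10 (adjusted p = 0.607). Ccnd2 rose by 0.34 ± 0.08 with ACM in WT cells (adjusted p = 0.00357) and its S1P difference was -0.09 ± 0.08 (adjusted p = 0.352). Ccnd3 fell by 0.69 ± 0.10 with S1P (adjusted p = 3.55e-06) and its ACM difference was -0.12 ± 0.10 (adjusted p = 0.425). Cdk4 fell by 0.21 ± 0.03 with S1P and by 0.17 ± 0.03 with ACM in WT cells (adjusted p = 8.31e-07 and 0.00013).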
